A study of Mus musculus with 12 samples.

Results

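The thrombospondins are secreted glycoproteins of the extracellular matrix, encoded in the mouse by 5 genes: Thbs1, Thbs2, Thbs3, Thbs4 and Comp (cartilage oligomeric matrix protein). All 5 were found by symbol among the 46983 gene symbols in each of 2 expression tables, and each had reads in all 12 libraries. The family was chosen by measured values, the normalized counts of Thbs4, which was nearly lost in both cell fractions of hearts with floxed Wls, so the genotype difference of Thbs4 is described here with no test. The other 4 genes came in by family name, and their genotype differences were tested.

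Mouse hearts (strain label BL6/C57) were split into cardiomyocytes (CM) and the remaining cells (NonCM), and bulk RNA was sequenced from 3 libraries in each of 4 groups. The 4 groups were NonCM from MCM/+ Wls fl/fl hearts, NonCM from MCM/+ control hearts, CM from MCM/+ Wls fl/fl hearts and CM from MCM/+ control hearts. All mice were given 3 doses of tamoxifen between postnatal days 1 and 3 and a myocardial infarction at postnatal day 2, and tissue was collected 2 weeks after surgery; the labels nevertheless name the cells adult. MCM commonly stands for MerCreMer, in which estrogen receptor domains hold Cre recombinase inactive until tamoxifen is given, and Wls is the membrane protein that carries Wnt ligands out of the cell. No uninjured heart was in these groups, and the labels do not name the promoter that drives MCM. The labels do not tie libraries to animals, so p-values measure the spread between libraries.

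Thrombospondins fall into 2 subgroups. Thbs1 and Thbs2 assemble as trimers, carry type 1 repeats and restrain the growth of blood vessels, and Thbs1 also releases TGF beta from its latent form. Thbs3, Thbs4 and Comp assemble as pentamers without those repeats and bind collagens and other matrix proteins in tendon, cartilage and muscle. In mouse cardiomyocytes, Thbs4 is also known inside the endoplasmic reticulum, where it binds the stress sensor Atf6, and it is a gene raised by cardiac injury and overload.

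Of the 5 genes, 3 had an entry in the RefSeq promoter table (GRCm38.p6), and the 250 bases before each start are shown because Thbs4 is the member whose RNA was nearly lost while Thbs2 and Thbs3 RNA was not. The Thbs4 window lies at chr13:92794819-92795068 on the minus strand, the Thbs3 window at chr3:89214930-89215179 on the plus strand, and the Thbs2 window at chr17:14694263-14694512 on the minus strand. Capitals mark CATTCC, the letters that TEAD factors are known to bind in many muscle genes.
Thbs4: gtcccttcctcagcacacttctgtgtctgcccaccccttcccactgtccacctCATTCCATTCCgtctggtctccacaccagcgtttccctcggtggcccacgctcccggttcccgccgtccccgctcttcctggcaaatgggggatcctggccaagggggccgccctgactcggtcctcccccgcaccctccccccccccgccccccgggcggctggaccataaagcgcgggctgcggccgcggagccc
Thbs3: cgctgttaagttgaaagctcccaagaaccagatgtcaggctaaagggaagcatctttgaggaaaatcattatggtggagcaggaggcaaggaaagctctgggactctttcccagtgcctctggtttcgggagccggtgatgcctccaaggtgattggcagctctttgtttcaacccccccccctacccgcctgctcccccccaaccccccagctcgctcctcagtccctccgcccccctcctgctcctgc
Thbs2: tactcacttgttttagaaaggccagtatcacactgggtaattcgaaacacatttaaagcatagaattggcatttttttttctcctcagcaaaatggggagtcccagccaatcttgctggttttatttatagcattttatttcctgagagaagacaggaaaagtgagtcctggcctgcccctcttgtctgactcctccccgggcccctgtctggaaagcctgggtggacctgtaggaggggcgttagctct
The Thbs4 window was 70.8% G and C, against 58.8% for Thbs3, 46.8% for Thbs2 and a median of 52.4% over the 32851 windows of the table. On either strand, CATTCC stood 2 times in the Thbs4 window, at bases 197 to 192 and 192 to 187 before the start, so that the matches share 1 base. The Thbs3 and Thbs2 windows held no CATTCC. At least 1 match was present in 12.6% of all windows and 2 or more in 1.02%. The GC box GGGCGG stood 3 times for Thbs4, 1 time for Thbs3 and not for Thbs2, and 32.7% of all windows held it. CTTTGAT, the letters of the Wnt effectors TCF and LEF, had no match in these 3 windows and matched 3.21% of all windows. The TATA letters TATAAA stood 1 time for Thbs2 only, and 12.4% of all windows held them. CCAAT stood 2 times for Thbs2, 1 time for Thbs3 and not for Thbs4, and 33.8% of all windows held it. These matches describe letters, and binding was not measured.

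Before the results, several features of the libraries bear on them. Depth ran from 1160146 reads in NonCM control replicate 1 to 10281214 in NonCM Wls fl/fl replicate 1, and 1 read equals a normalized count of 5.54 in that shallowest library. In each group, replicate 3 lay close to a weighted mean of replicates 1 and 2: its mean squared distance from the best mixture was 1.02 to 1.05 times the counting variance, against 1.13 to 2.00 when replicate 1 or 2 was set against the others. Results are therefore also given without replicate 3. The targeted gene Wls had 356, 323 and 316 normalized counts in NonCM of Wls fl/fl hearts and 427, 374 and 407 in NonCM of control hearts. In CM it had 91.6, 57.3 and 93.9 for Wls fl/fl and 243, 201 and 210 for control hearts, a log2 difference of -1.45 (limma adjusted p = 0.00389). Without replicate 3 the CM difference was -1.60 (limma adjusted p = 0.0898), and with each library left out limma's adjusted p was 0.0014 to 0.0520. In NonCM the Wls difference was -0.28 and limma did not call it (adjusted p = 0.0831, or 0.578 without replicate 3), while edgeR gave an adjusted p of 0.0333. Every Wls fl/fl library lay below every control library in both fractions. Groups that do not overlap were seen for 26.5% of all genes tested in NonCM and 15% in CM. Esr1, whose receptor domain MerCreMer carries, averaged 723 ± 69.9 in NonCM Wls fl/fl and 53.1 ± 30.9 in NonCM control libraries, and 1527 ± 203 in CM Wls fl/fl and 22.4 ± 9.83 in CM control libraries (SD, n = 3 each). Both genotypes are labelled MCM/+, and this difference and the loss of Wls cannot be told apart here. Cardiomyocyte markers (16 genes) still took 6.62% to 6.84% of reads in NonCM Wls fl/fl libraries and 7.63% to 8.35% in NonCM controls, against 11.4% to 12.6% in CM Wls fl/fl and 11.5% to 11.7% in CM controls, so the NonCM fraction held much cardiomyocyte RNA.

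Thbs4 RNA was low in every Wls fl/fl library of both fractions. In NonCM it had 24.2, 90.5 and 65.8 normalized counts in Wls fl/fl hearts, against 327, 304 and 314 in control hearts. The highest Wls fl/fl library was far below the lowest control library, and the Wls fl/fl libraries differed more among themselves than the controls did. In CM it had 25.8, 45.8 and 15.5 normalized counts in Wls fl/fl hearts, against 542, 396 and 438 in control hearts. Again the groups stood far apart; groups that do not overlap were seen for 26.5% of all genes tested in NonCM and 15% in CM.

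The means were 60.1 ± 33.5 in NonCM Wls fl/fl and 315 ± 11.8 in NonCM control hearts, so that 19.1% of the control level was left. In CM they were 29.1 ± 15.4 in Wls fl/fl and 459 ± 74.9 in control hearts (SD, n = 3 each), with 6.34% left. On the log2(normalized count + 1) scale the difference, Wls fl/fl minus control, was -2.56 (SE 0.38) in NonCM and -4.05 (SE 0.28) in CM, and without replicate 3 it was -2.72 and -3.71. Leaving out each library in turn gave -2.94 to -2.01 in NonCM and -4.43 to -3.68 in CM. The authors' deposited table gives -2.39 (SE 0.52) and -4.00 (SE 0.43) for these differences. The reads behind the Thbs4 values numbered 38, 136 and 88 in NonCM Wls fl/fl and 59, 398 and 433 in NonCM control libraries, and 22, 44 and 24 in CM Wls fl/fl and 530, 321 and 450 in CM control libraries, so no library was at 0. In bulk RNA, fewer cells of a type and less RNA per cell cannot be told apart.

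Thbs4 had the lowest log2 difference of all 13271 genes tested in NonCM and of all 11944 in CM. The genes next to it were Gm29172 at -1.73 and 2010001K21Rik at -1.42 in NonCM, and in CM Wls itself at -1.45 and Pyroxd2 at -1.24. These ranks describe the choice of the family and carry no test.

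**Figure D1:**
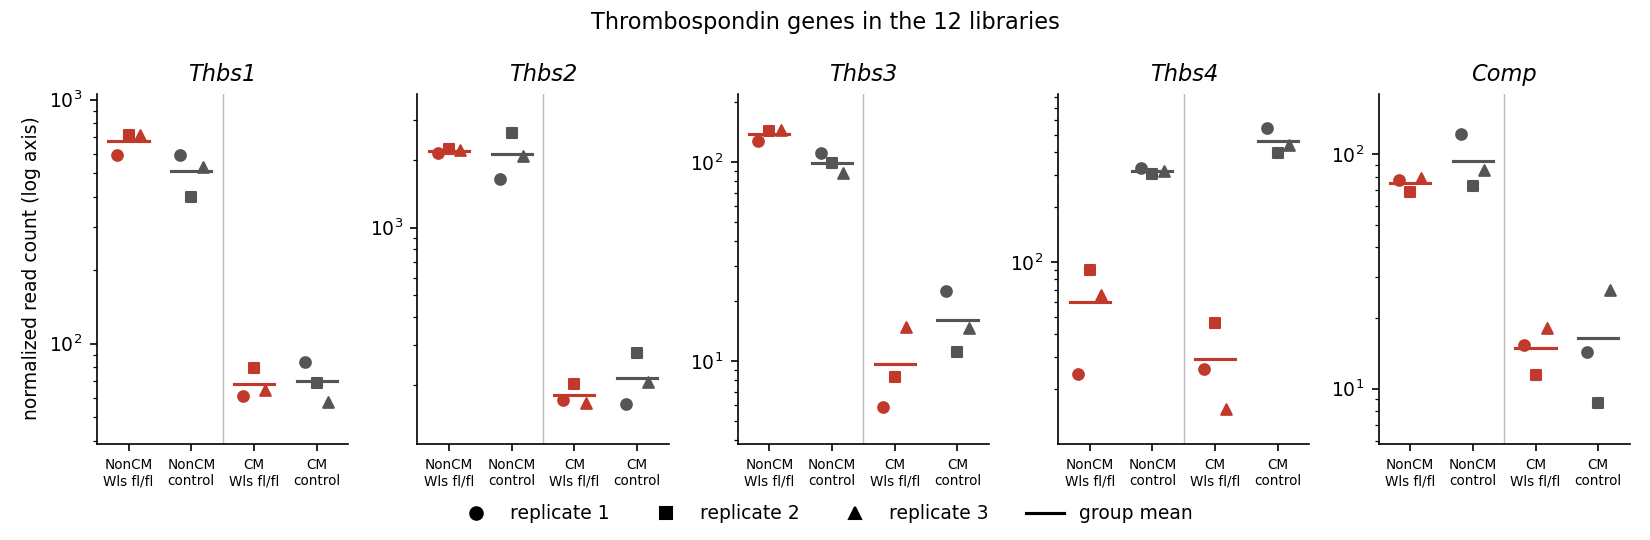
Normalized read count (log axis) of the 5 thrombospondin genes in each of the 12 libraries, with Wls fl/fl left of control within each fraction; points are libraries and bars are group means. Thbs4 lies at 24.2 to 90.5 in NonCM Wls fl/fl against 304 to 327 in NonCM control libraries, and at 15.5 to 45.8 in CM Wls fl/fl against 396 to 542 in CM control libraries, while the Thbs2 groups overlap in both fractions.

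No other thrombospondin had a log2 difference below -0.71 in either fraction. Among Thbs1, Thbs2, Thbs3 and Comp, limma with Benjamini-Hochberg adjustment over all genes called 0 of 4 in NonCM, where it called 4.51% of all genes, and 0 of 4 in CM, where it called 0.0921%. At an unadjusted p under 0.05 the counts were 2 of 4 in NonCM and 0 of 4 in CM, against 19.3% and 8.74% of all genes in these fractions. By edgeR's quasi-likelihood test on the reads recovered from the values, 2 of 4 rose in NonCM, with 5.73% of all genes called higher, and 0 of 4 changed in CM, with 0.1% called. DESeq2 called 1 of 4 in NonCM, with 6.35% of all genes called, and in CM 0 of the 2 genes to which it gave an adjusted p, with 0.225% of all genes called.

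Thbs1, the trimer that releases TGF beta and binds Cd36 and Cd47, lies at chr2:118111876-118127133 on the plus strand (GRCm38). It averaged higher in NonCM of Wls fl/fl hearts. It had 593.3, 716 and 717 normalized counts in Wls fl/fl and 593.2, 399.6 and 532 in control libraries. The groups did not overlap, as was so for 26.5% of all genes tested in NonCM. The lowest Wls fl/fl library and the highest control library were nearly equal. Means were 676 ± 71.2 in Wls fl/fl and 508 ± 98.9 in control hearts (SD, n = 3 each). The log2 difference of Thbs1 was 0.42 (SE 0.14, 95% interval 0.11 to 0.73, limma adjusted p = 0.127). For the same difference edgeR gave 0.48 (adjusted p = 0.00984) and DESeq2 0.46 (adjusted p = 0.00898). Without NonCM control replicate 1, the shallowest library, limma gave 0.54 (adjusted p = 0.0025), and without NonCM control replicate 2 it gave 0.26 (adjusted p = 0.158). It gave 0.42 (adjusted p = 0.550) without replicate 3, a setting in which it called 0% of all genes in NonCM.

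In CM the values of Thbs1 were 61.1, 79.2 and 64.7 normalized counts in Wls fl/fl and 83.8, 69.1 and 57.4 in control libraries, and the groups overlapped. The log2 difference was -0.03 (SE 0.16, 95% interval -0.38 to 0.33, limma adjusted p = 0.976), and its sign turned when CM control replicate 1 was left out (0.11). Thbs1 shares 208 exonic bases with Gm29233, a long noncoding RNA on the opposite strand that had 0 to 2 reads a library.

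Thbs2, the other trimer and a product of matrix-forming fibroblasts, lies at chr17:14665500-14694235 on the minus strand and was the family's most read gene in NonCM. It had 2139, 2232 and 2206 normalized counts in NonCM Wls fl/fl and 1652, 2644 and 2089 in NonCM control libraries. The Wls fl/fl values fell inside the range of the controls. Its log2 difference was 0.07 (SE 0.14, 95% interval -0.24 to 0.38, limma adjusted p = 0.826), with the opposite sign by edgeR (-0.012). In CM it had 170, 202 and 166 in Wls fl/fl and 163, 276 and 206 in control libraries. The CM groups overlapped as well, with a log2 difference of -0.23 (SE 0.16, 95% interval -0.57 to 0.11, limma adjusted p = 0.698). It was -0.41 without CM control replicate 1 and -0.037 without CM control replicate 2.

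Thbs3, a pentamer known from skeletal growth and, in mouse cardiomyocytes, from the trafficking of integrins, lies at chr3:89215180-89226837 on the plus strand. It had 127, 142 and 144 normalized counts in NonCM Wls fl/fl and 111, 98.4 and 87.6 in NonCM control libraries. Every Wls fl/fl library lay above every control library, where 26.5% of all genes tested in NonCM had groups that did not overlap. Means were 138 ± 9.36 in Wls fl/fl and 99.0 ± 11.6 in control hearts (SD, n = 3 each), and the log2 difference of Thbs3 was 0.48 (SE 0.12, 95% interval 0.21 to 0.75, limma adjusted p = 0.0573). By edgeR it was 0.54 (adjusted p = 0.00659) and by DESeq2 0.53 (adjusted p = 0.0689). With only genes of a mean of 50 or more tested, limma's adjusted p was 0.0440, without NonCM control replicate 1 it was 0.00277, and without replicate 3 the difference was 0.36 (adjusted p = 0.538).

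Thbs3 was scarce in CM, at 5.87, 8.34 and 14.9 normalized counts in Wls fl/fl and 22.5, 11.1 and 14.6 in control libraries. The groups overlapped, and the log2 difference was -0.71 (SE 0.38, 95% interval -1.53 to 0.12, limma adjusted p = 0.644), or -1.07 without replicate 3, -0.45 without CM control replicate 1 and -0.43 without CM Wls fl/fl replicate 1. Mtx1, on the opposite strand, spans Thbs3 and shares 318 of its 4823 exonic bases, and with no strand setting stated their reads cannot be told apart there. Mtx1 itself had 57.9 to 62.0 normalized counts in NonCM Wls fl/fl and 38.8 to 59.4 in NonCM control libraries, and 49.3 to 62.8 in CM Wls fl/fl and 53.5 to 59.2 in CM control libraries.

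Comp, the pentamer of cartilage and tendon that binds collagen fibrils, lies at chr8:70373558-70382066 on the plus strand. It had 77.6, 68.5 and 79.2 normalized counts in NonCM Wls fl/fl and 122, 73.2 and 85.5 in NonCM control libraries. The groups overlapped, with a log2 difference of -0.28 (SE 0.18, 95% interval -0.70 to 0.13, limma adjusted p = 0.451). It was -0.077 without NonCM control replicate 1 and -0.44 without NonCM control replicate 2, and edgeR gave -0.15. In CM it had 15.3, 11.5 and 18.1 in Wls fl/fl and 14.3, 8.64 and 26.3 in control libraries. No direction held there: the log2 difference of Comp was -0.02 (SE 0.37, 95% interval -0.82 to 0.78, limma adjusted p = 0.996), and it was 0.23 without replicate 3. These intervals leave room for changes of Comp and Thbs3 in CM that the reads could not show.

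**Figure D2:**
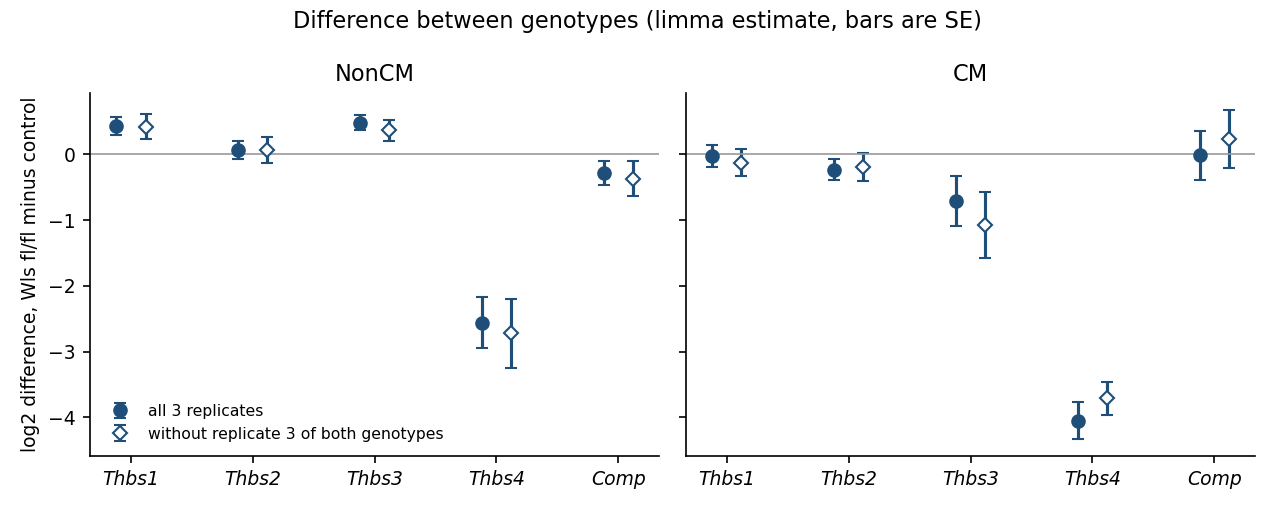
Log2 difference, Wls fl/fl minus control, of log2(normalized count + 1) for each thrombospondin gene in NonCM and CM. Filled points are limma estimates, open diamonds are those without replicate 3 of both genotypes, and bars are SE. Thbs4 stands at -2.56 in NonCM and -4.05 in CM. The SE bars of Thbs1 and Thbs3 in NonCM lie above 0, although their limma adjusted p-values of 0.127 and 0.0573 missed the threshold of 0.05.

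Some lists of cell markers also differed between the genotypes in NonCM, where limma called 2.47% of all genes higher and 2.03% lower. The 13 fibroblast markers took 1.79% to 1.89% of reads in NonCM Wls fl/fl and 1.28% to 1.34% in NonCM control libraries, and 8 of 13 rose by limma. The 21 genes that respond to tissue dissociation took 0.445% ± 0.0692 in Wls fl/fl and 0.321% ± 0.0153 in control libraries (SD, n = 3 each), with 5 of 21 called higher. The 16 cardiomyocyte markers took 6.73% ± 0.113 in Wls fl/fl and 7.93% ± 0.375 in control libraries, and 11 of 16 fell. Of the 11 endothelial markers, 10 had a lower value and 1 was called lower (median log2 difference -0.15). Of the 9 smooth muscle and pericyte markers tested, 5 were higher and 4 lower, with 1 called lower (median 0.01). Platelets carry Thbs1. The 11 platelet markers took 0.00420% to 0.00473% of reads in NonCM Wls fl/fl and 0.00326% to 0.00388% in NonCM controls. Gp6 was at 0 in the controls. Of the 4 platelet markers tested, 3 were higher and 1 lower, with 0 called. In RPM, which is reads scaled to the total of each library, Pf4 made up most of the platelet sum. It averaged 34.5 of 45.0 RPM in NonCM Wls fl/fl and 26.4 of 35.6 RPM in NonCM controls. Ppbp averaged 0.61 and 0.18 RPM in these groups. The part of these cells and of handling in the Thbs1 and Thbs3 values was not tested. The tendon markers, a set of 5 genes, stayed under 0.004% of reads in all libraries, and Tnmd was at 0 in both CM groups and in NonCM controls.

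The fractions were compared in control hearts to see which cells carried the RNA of each thrombospondin. In a joint edgeR quasi-likelihood fit of all 12 libraries (TMM scaling, p adjusted over 13993 genes), 4 of 5 genes were higher in NonCM, where 28.1% of all genes were higher, and Thbs4 was lower, with 27.2% of all genes lower. In RPM, reads scaled to the total of each library, Thbs2 averaged 318 ± 65.2 in NonCM and 33.9 ± 8.82 in CM of control hearts (SD, n = 3 each), a log2 difference, NonCM minus CM, of 3.03 (SE 0.14, adjusted p = 2.65e-13). Thbs1 averaged 76.6 ± 17.0 in NonCM and 11.04 ± 2.10 in CM, a difference of 2.45 (SE 0.16, adjusted p = 4.69e-11). Thbs3 was higher in NonCM by 2.19 (SE 0.22, adjusted p = 4.2e-08) and Comp by 1.95 (SE 0.25, adjusted p = 1.25e-06) on the log2 scale. These 4 kept their direction and their call in every alternative run, the fit without replicate 3 included.

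Thbs4 ran the other way. It averaged 47.3 ± 3.27 RPM in NonCM and 72.2 ± 12.1 RPM in CM of control hearts, a log2 difference of -0.90 (SE 0.19, adjusted p = 0.000523). Without replicate 3 the difference was -0.93 (adjusted p = 0.0292). DESeq2 gave -0.86 with an adjusted p of 0.152, so the call rests on the tool. With RPM and no further scaling, the median of all genes moved up by 0.25, Thbs4 was at -0.65 (adjusted p = 0.00748), and all-gene calls split into 5930 higher and 2028 lower in NonCM, against 3934 and 3803 with TMM. In the same comparison the 16 cardiomyocyte markers had a median of -0.88 with 15 of 16 lower, the 13 fibroblast markers a median of 2.84 with 13 of 13 higher, and the 10 macrophage markers a median of 4.34 with 10 of 10 higher. The 9 smooth muscle and pericyte markers had a median of 0.06, with 3 called higher, 3 called lower and a lowest value of -0.89. The 11 endothelial markers had a median of 0.17, with 4 called higher and 0 lower. The Thbs4 value thus stood near the median of the cardiomyocyte markers, but also near the lowest smooth muscle and pericyte marker. The other 4 members stood nearer to the median of the fibroblast markers. Which cells made the RNA was not measured.

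In Wls fl/fl hearts the mean of Thbs4 was higher in NonCM, although the libraries of the fractions overlapped. It averaged 9.30 ± 5.21 RPM in NonCM and 4.57 ± 2.42 RPM in CM of Wls fl/fl hearts (SD, n = 3 each), a ratio of NonCM to CM of 2.04, against 0.655 in control hearts. The cardiomyocyte markers summed to a ratio of 0.566 in Wls fl/fl and 0.680 in control hearts. The genotype difference of Thbs4 was 1.69 less negative in NonCM than in CM on the log2 scale of the joint fit, which is a description.

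For the other members the difference between fractions in the genotype effect was tested as an interaction in the joint edgeR fit, which called 1.41% of all genes and 0 of these 4. At an unadjusted p under 0.05 there were 2 of 4, against 13.5% of all genes, and limma-voom, which called 2.33% of all genes, called 0 of 4. The effect in NonCM minus that in CM was 0.51 (SE 0.24, adjusted p = 0.343) for Thbs1 and 1.14 (SE 0.36, adjusted p = 0.126) for Thbs3. It was 0.24 (SE 0.20, adjusted p = 0.672) for Thbs2 and -0.02 (SE 0.39, adjusted p = 0.999) for Comp. A genotype effect of Thbs1 or Thbs3 particular to NonCM was therefore not shown.

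Set per length, as RPKM, which is RPM divided by exon length in kilobases, the genes can be ranked within a library. In NonCM of Wls fl/fl hearts Thbs2 stood first at 48.3 ± 1.39 RPKM and Thbs1 next at 17.2 ± 1.93, while Thbs3 at 4.41 ± 0.333, Comp at 3.91 ± 0.301 and Thbs4 at 2.83 ± 1.58 had neighbours that overlapped. In NonCM of control hearts Thbs2 led at 45.5 ± 9.31 RPKM, Thbs4 at 14.4 ± 0.993 and Thbs1 at 12.6 ± 2.81 overlapped, and Comp at 4.76 ± 1.45 and Thbs3 at 3.09 ± 0.442 came last (SD, n = 3 each). In CM of Wls fl/fl hearts Thbs2 was first at 4.03 ± 0.437 RPKM, and Thbs1 at 1.77 ± 0.248, Thbs4 at 1.39 ± 0.735 and Comp at 0.793 ± 0.18 overlapped with their neighbours, above Thbs3 at 0.317 ± 0.154. In CM of control hearts Thbs4 was far ahead at 22.0 ± 3.67 RPKM, before Thbs2 at 4.84 ± 1.26 and Thbs1 at 1.82 ± 0.346, with Comp at 0.872 ± 0.480 and Thbs3 at 0.525 ± 0.192 overlapping.

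Thbs4 thus made up 3.61% ± 1.89 of the family's summed RPKM in NonCM of Wls fl/fl hearts and 18.0% ± 2.06 in NonCM of control hearts. In CM its share was 16.2% ± 6.46 in Wls fl/fl and 72.9% ± 4.87 in control hearts. The summed RPKM of the 5 genes was 76.6 ± 5.05 in NonCM Wls fl/fl and 80.3 ± 4.07 in NonCM control libraries, and 8.30 ± 1.17 in CM Wls fl/fl and 30.0 ± 3.00 in CM control libraries (SD, n = 3 each). In the CM fraction of control hearts Thbs4 was thus the main thrombospondin RNA, while in both NonCM groups Thbs2 was.

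**Figure D3:**
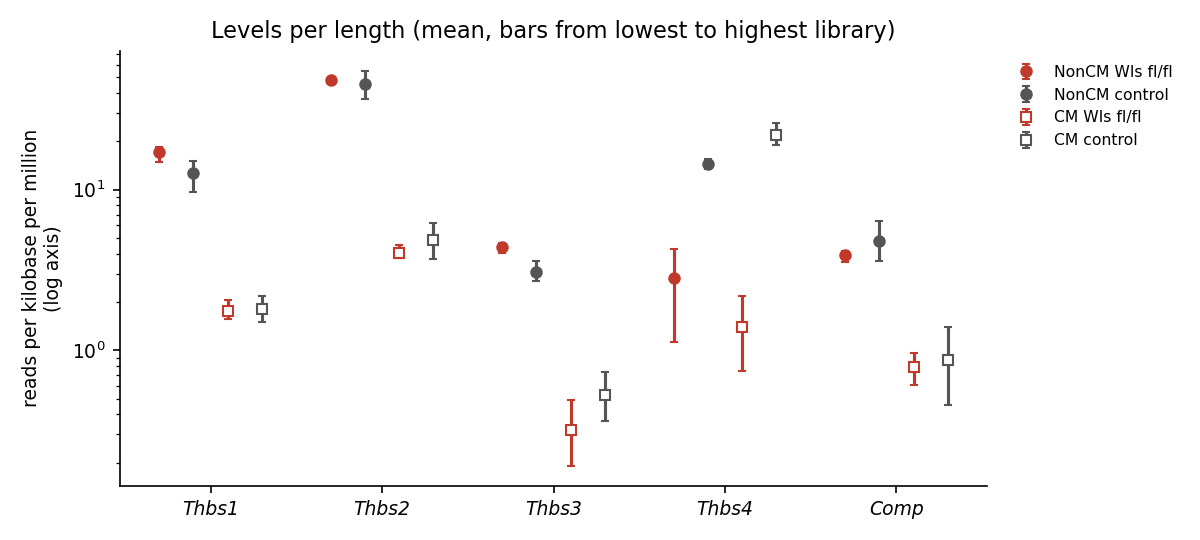
Level per exon length (RPKM, log axis) of each thrombospondin gene in the 4 groups, Wls fl/fl left of control and NonCM left of CM. Points are group means and bars run from the lowest to the highest library. Thbs2 leads in 3 groups, and Thbs4 leads in CM of control hearts at 22.0 RPKM against 1.39 RPKM in CM of Wls fl/fl hearts.

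Thbs4 lies at chr13:92751590-92794818 on the minus strand (GRCm38), with 3289 exonic bases, and its neighbours were examined to see whether genes around it moved with it. GENCODE M21 places 40 genes within 1 Mb of it, of which 28 were in the tables. In NonCM 13 of them were tested, with a median log2 difference of -0.04 and a range of -0.55 to 0.26, and limma called 1 lower and edgeR 3 in all, where limma called 2.03% of all genes lower and edgeR called 10.9% in either direction. In CM 12 were tested, with a median of -0.07 and a range of -0.28 to 0.15; limma and edgeR each called 0, with 2 at an unadjusted p under 0.05, against 8.74% of all genes. The gene that fell by limma in NonCM was Cmya5, a sarcomere-associated protein gene 246 kb before the Thbs4 start, with a log2 difference of -0.55 (limma adjusted p = 0.00138); 11 of 16 cardiomyocyte markers fell with it. Serinc5, 39.6 kb beyond the Thbs4 end, and Mtx3, 49.9 kb before its start, were the nearest genes with a mean of 10 or more in both tables. No neighbour tested came near the Thbs4 values, but neither did any other gene tested. The next lowest values were -1.73 in NonCM and -1.45 in CM. The distance from Thbs4 is therefore not particular to its neighbours.

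**Figure D4:**
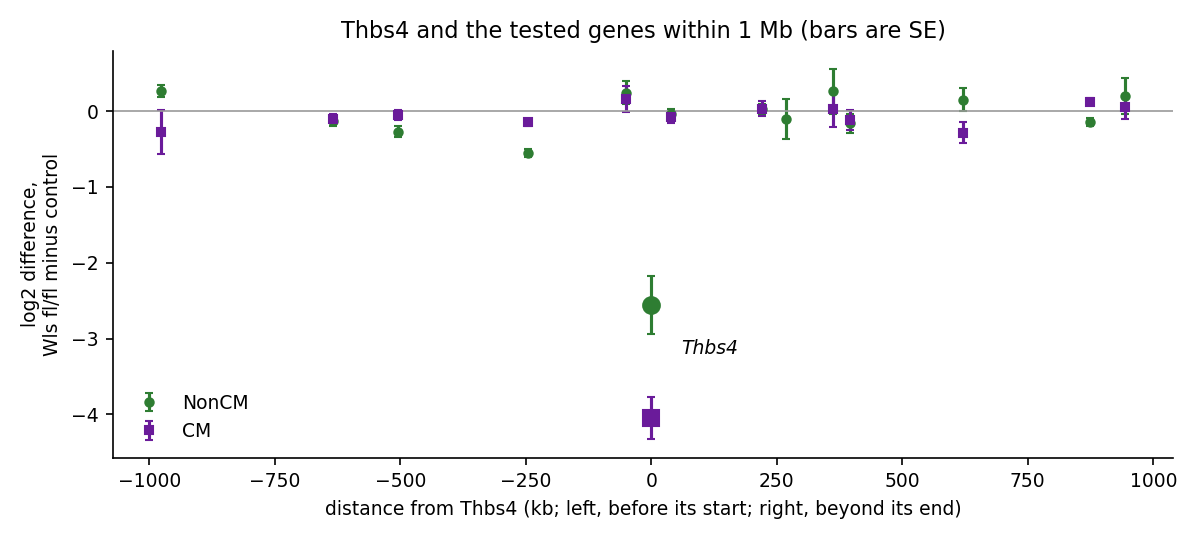
Log2 difference, Wls fl/fl minus control, of each tested gene within 1 Mb of Thbs4 against its distance from Thbs4, for NonCM and CM. Thbs4 sits at -2.56 in NonCM and -4.05 in CM, and the neighbours lie between -0.55 and 0.26 in NonCM and between -0.28 and 0.15 in CM.

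Likeness to Thbs4 over the 12 libraries was measured as Pearson's r of log2(normalized count + 1) after the mean of each fraction was removed, among 11820 genes. The 5 highest were Gab1 (r = 0.93), Xab2 (r = 0.92), Hdac9 (r = 0.92), Pyroxd2 (r = 0.91) and Ppp3ca (r = 0.91), while Wls had r = 0.79. The rest of the family was not alike: r was 0.25 for Thbs2, 0.25 for Thbs3, 0.09 for Comp and -0.16 for Thbs1. All points share libraries, depth and the genotype split, so r is a description. Over the same libraries, r was -0.97 for P4ha1, the lowest among genes with a full symbol, and -0.96 for Esr1, which are named here after their values were seen. Between the genotypes Esr1 differed by 3.88 in NonCM and 6.10 in CM on the log2 scale, and Wls by -0.28 and -1.45. Whether Thbs4 followed either gene was not tested, and their r values are not ranked here.

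Genes related to thrombospondins were followed in 7 lists, chosen with earlier results of these data known. They include late scar and tendon genes and genes that share a repeat domain, so the pooled counts are not of partners alone. In NonCM 27 of the 125 genes tested rose and 2 fell by limma, 23.2% in all, where 2.47% of all genes rose and 2.03% fell, with a median log2 difference of 0.22 against 0.02. By edgeR 48 rose and 9 fell, where 5.73% of all genes rose and 5.16% fell. In CM limma called 0 of 107 and edgeR 0, with 18 at an unadjusted p under 0.05, which 8.74% of all genes reached, and a median of 0.01. Without replicate 3, limma called 0 of these genes in NonCM and 0 in CM, where it called 0.0168% of all genes. The lists share genes with the fibroblast markers given above, whose part in these counts was not tested.

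Of the 22 thrombospondin receptors tested in NonCM, 5 rose and 0 fell (median 0.14). Itgb2, an integrin chain of leukocytes, averaged 222 ± 19.1 normalized counts in Wls fl/fl and 106 ± 29.7 in control hearts (SD, n = 3 each), a log2 difference of 1.09 (adjusted p = 0.0187). Itga4 rose by 0.51 (adjusted p = 0.0160), and Lrp1, which takes up thrombospondin complexes, by 0.32 (adjusted p = 0.0264). Calr, a chaperone that also binds Thbs1 at the cell surface, rose by 0.22 (adjusted p = 0.0322). The 10 macrophage markers took 0.176% ± 0.00439 of reads in NonCM Wls fl/fl and 0.135% ± 0.0134 in NonCM control libraries (SD, n = 3 each), with 2 of 10 called higher, and their part in the Itgb2 value was not tested. In CM, where no receptor passed, Cd47 was at -0.16 (adjusted p = 0.543) and Cacna2d2 at 0.68 (adjusted p = 0.641).

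The list of Atf6 and endoplasmic reticulum folding genes had 2 of 26 genes higher in NonCM and 0 lower (median 0.14). This was 7.69% called, not far from the 4.51% of all genes that limma called in either direction. The genes called were Pdia4, a disulfide isomerase of the endoplasmic reticulum, at 0.45 (adjusted p = 0.00877), and Calr, already counted among the receptors. In CM, where the genotype difference of Thbs4 was larger, Canx was at -0.09 (adjusted p = 0.566) and Dnajc3 at -0.17 (adjusted p = 0.589). The dystrophin complex and muscle integrin list had a median of -0.18 over the 16 genes tested in NonCM. In CM, Sntb1 was at 0.28 (adjusted p = 0.553) and Utrn at 0.11 (adjusted p = 0.558).

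TGF beta genes had 3 of 12 higher in NonCM and 0 lower (median 0.23). Tgfb3 averaged 327 ± 16.4 normalized counts in Wls fl/fl and 228 ± 5.07 in control hearts, a log2 difference of 0.52 (adjusted p = 0.00659). The latent TGF beta binding genes Ltbp4 and Ltbp3 rose by 0.33 (adjusted p = 0.0478) and 0.29 (adjusted p = 0.0305). In CM, Ltbp1 was at 0.31 (adjusted p = 0.446) and Tgfbr2 at -0.20 (adjusted p = 0.468).

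Matrix partners gave the highest count, 11 of 18 higher and 0 lower in NonCM (median 0.60). Fn1, fibronectin, averaged 6419 ± 114 normalized counts in Wls fl/fl and 3482 ± 104 in control hearts, a log2 difference of 0.88 (adjusted p = 9.81e-05). The fibrillar collagen genes Col3a1 (0.65), Col1a1 (0.65) and Col1a2 (0.60) rose too, with adjusted p-values of 0.000645, 0.00112 and 0.000865. These 3 collagens are also fibroblast markers. In CM, Fn1 was at 0.36 (adjusted p = 0.0682) and Dcn at -0.18 (adjusted p = 0.452).

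The late scar and tendon list had 3 of 13 higher and 1 lower in NonCM (median 0.60). Prg4, lubricin, averaged 116 ± 20.0 normalized counts in Wls fl/fl and 37.4 ± 10.8 in control hearts, a log2 difference of 1.63 (adjusted p = 0.00505). Tnc, tenascin C, rose by 0.72 (adjusted p = 0.0329), Col8a1 rose by 0.64 (adjusted p = 0.00396), and Clu fell by 0.29 (adjusted p = 0.0203). In CM, Clu was at -0.22 (adjusted p = 0.399) and Col8a1 at 0.46 (adjusted p = 0.434).

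Other genes with thrombospondin type 1 repeats had 4 of 20 higher and 0 lower in NonCM (median 0.27). Cfp, properdin, averaged 134 ± 9.69 normalized counts in Wls fl/fl and 68.5 ± 11.4 in control hearts, a log2 difference of 0.97 (adjusted p = 0.00939). Nov rose by 0.70 (adjusted p = 0.00717), Adamtsl2 by 0.66 (adjusted p = 0.00216) and Adamtsl3 by 0.35 (adjusted p = 0.0356). In CM, Sema5a was at 0.55 (adjusted p = 0.399) and Ctgf at -0.34 (adjusted p = 0.452).

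**Figure D5:**
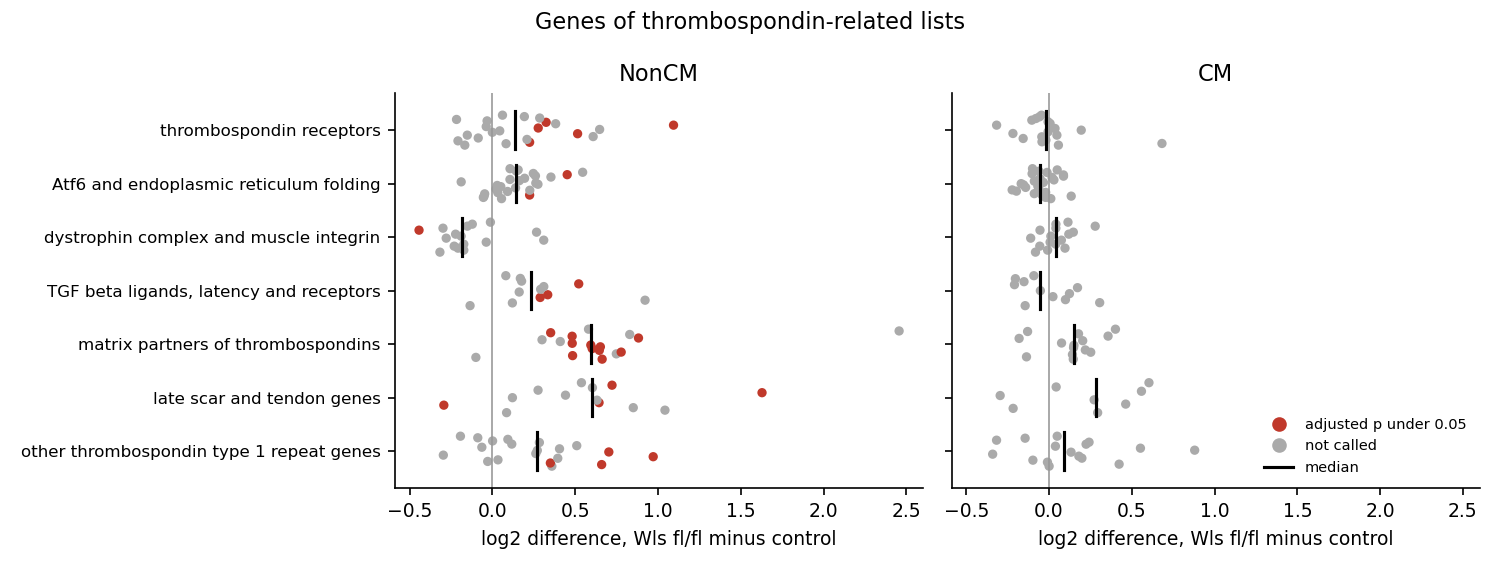
Log2 difference, Wls fl/fl minus control, of every tested gene in the 7 lists of thrombospondin-related genes, in NonCM and CM. Black bars are list medians, and red points passed an adjusted p of 0.05 by limma. Matrix partners have 11 of 18 points in red in NonCM, and no point is red in CM.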

How the data were processed

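RNA of 12 libraries was analysed in 4 groups of 3, taken from the labelled genotype and cell fraction. STAR, DESeq2 and mm10 are listed, per the submitters' processing notes, without versions; the annotation, the counter and its strand setting are not stated there. The deposited signal values, a table for each fraction, are normalized counts that the authors made by dividing counts by a size factor. This was checked: 100% of values were whole multiples of 1 read to a tolerance of 0.01. Per the file headers the tables also hold the authors' log2 fold changes and standard errors, raw and adjusted p-values by the authors, and a test statistic that is a score; of these only the log2 fold changes of Thbs4 and their errors are quoted. Date-like symbols, 25 in each table, have lost their names.

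Within each fraction, limma 3.58.1 (R 4.3.3; eBayes with trend, no covariate) was run on log2(value + 1), keeping genes whose mean was at least 10, with Benjamini-Hochberg adjustment over all of them and a threshold of 0.05. Fractions were compared on recovered reads in a joint edgeR 4.0.16 quasi-likelihood fit (TMM, filterByExpr, 4 group coefficients). The design had allowed for counts or normalized values; normalized values were found, so limma was the main test. With 3 against 3, the smallest exact permutation p is 0.1. Alternatives were pseudocounts of 0.5 and 5, no filter or a minimum mean of 50, other scalings, edgeR, DESeq2 1.42.0 and limma-voom, each library left out, and all without replicate 3; edgeR without replicate 3 and RPM with no further scaling were added after seeing the data. The code was tested on simulated data. Depth was 1160146 to 10281214 reads per library.

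Members and lists were chosen with earlier results of these data known. Named by rule are the 5 members, up to 4 called genes of smallest p per related list and fraction (otherwise 1 or 2 of smallest p), the 5 genes most like Thbs4, its called neighbours and nearest genes, and Wls; unnamed clone symbols were left out of the likeness only. Some results that the rule would name are not reported here. Positions and exon lengths are from GENCODE M21 (GRCm38, the same build as mm10).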

Additional observations from a re-analysis of the deposited data

How the results depend on the processing

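The 5 genes in 4 comparisons made 20 results, with 363 values under alternatives, of which 336 kept direction and side of the threshold, 8 passed it only under the alternative, 1 lost its call and 18 turned sign; Thbs4 was judged against a threshold only between fractions. In NonCM, Thbs1 passed by edgeR (0.48), DESeq2 (0.46) and limma-voom (0.50), and Thbs3 by edgeR (0.54), limma-voom (0.54) and with a mean of 50 or more (0.48). Leaving out each library gave 0.26 to 0.54 for Thbs1 and 0.40 to 0.56 for Thbs3, with the upper values, both past the threshold, without NonCM control replicate 1. The difference of Thbs4 between fractions, -0.86 by DESeq2, lost its call. Signs turned for Thbs2 in NonCM by edgeR (-0.012), limma-voom (-0.023) and edgeR without replicate 3 (-0.035), and at -0.10 to 0.24 with each library left out; Comp in CM without replicate 3 by limma (0.23) and edgeR (0.18), and at -0.38 to 0.37 with each library left out; Thbs1 in CM at -0.16 to 0.11 with each library left out; and the Comp interaction with unscaled RPM (0.045), and at -0.56 to 0.24 with each library left out.

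Genes called in CM numbered 11, against 41 with no filter, 23 by DESeq2, 17 by limma-voom, 5 to 18 with each library left out and 2 without replicate 3. In NonCM 598 were called, against 1446 by edgeR, 1477 by limma-voom, 77 to 1634 with each library left out, and 0 (limma) or 27 (edgeR) without replicate 3. The interaction had 198 calls, 113 with DESeq2 size factors, 400 with no filter, 326 by limma-voom, 382 by DESeq2, 39 with unscaled RPM, 0 to 296 with each library left out and 1 without replicate 3. The cause was not tested. With the libraries of both fractions paired in the order of their numbers within each genotype, deviations correlated at 0.04 to 0.30. Each CM library correlated best with the NonCM library of the same place in that order (6 of 6). The fractions share no library number, and the labels do not give this pairing. As a replicate block, it gave 647 interaction calls and changed no call of a tested member. With a mean of 50 or more, Thbs3 and Comp in CM had no value.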
